A study of Sus scrofa with 32 samples.

Results

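The 4 fetuses of sow 1340, named 1340F5L, 1340F7L, 1340F8L and 1340F9L, carried higher levels than all other fetuses of some genes of muscle atrophy, growth arrest, the glucocorticoid response and hypoxia, and lower levels of some proliferation genes, while other members of these lists overlapped. They were the only ones of 32 in which TRIM63, the muscle ubiquitin ligase MuRF1, lay above 15 FPKM, a read density scaled to transcript length and library size, and they were selected on that value. TRIM63 read 19.1 in 1340F7L, the lowest inside the threshold, and 10.3 in 1417F5L, the highest outside it. Because the fetuses were chosen by TRIM63, everything that follows on these 4 against the other 28 is a description, without a test. Fetus names open with 4 digits, taken here as the sow's number, although no label states it in words. Litter, sow and the TRIM63-high state coincide, so that they cannot be told apart.

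The study sequenced RNA from the longissimus dorsi, the long back muscle, of fetal pigs on gestational day 77. All fetuses were carried by purebred Iberian sows of the Retinto strain, inseminated with mixed Iberian and Large White semen and fed 50% of their maintenance requirement from day 35 onward, so feed restriction was shared by all litters. Of the 4 chosen fetuses, 1340F5L was a crossbred male, 1340F8L and 1340F9L were crossbred females and 1340F7L was an Iberian female. They were set against 13 other crossbred and 15 other Iberian fetuses from 6 sows, of both sexes. Each fetus gave 1 library, and weight categories were not in the labels.

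Muscle protein is known to be broken down when insulin and growth factor signalling weakens. FOXO transcription factors then enter the nucleus and switch on ubiquitin ligases of atrophy, among them TRIM63 and FBXO32 (atrogin-1), as well as autophagy genes. Glucocorticoids feed into the same program, partly through KLF15 and FOXO1, and PDK4 shifts fuel use from glucose to fat during fasting.

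Promoter windows of TRIM63 and of 3 genes described below are shown because these genes were high together. Each is the 250 bases before the RefSeq gene start in Sscrofa11.1, the build of the deposited loci, written 5′ to 3′ on the gene's strand. TRIM63 lies at chr6:83507472-83507721, minus strand, FOXO3 at chr1:74626423-74626672, plus strand, PDK4 at chr9:75260135-75260384, minus strand, and KLF15 at chr7:53890559-53890808, minus strand. The deposited locus of TRIM63 (chromosome 6, 83488972 to 83508007) reaches past its RefSeq start and covers the whole window. Capitals mark the forkhead motif TGTTTAC or GTAAACA, the hexamer TGTTCT or AGAACA of the glucocorticoid receptor element, and the E box CACGTG, searched on both strands.
TRIM63: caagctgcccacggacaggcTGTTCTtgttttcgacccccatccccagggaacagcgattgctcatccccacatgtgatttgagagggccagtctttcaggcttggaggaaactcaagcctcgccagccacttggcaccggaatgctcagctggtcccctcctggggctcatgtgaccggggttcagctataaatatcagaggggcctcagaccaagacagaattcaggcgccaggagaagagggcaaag
FOXO3: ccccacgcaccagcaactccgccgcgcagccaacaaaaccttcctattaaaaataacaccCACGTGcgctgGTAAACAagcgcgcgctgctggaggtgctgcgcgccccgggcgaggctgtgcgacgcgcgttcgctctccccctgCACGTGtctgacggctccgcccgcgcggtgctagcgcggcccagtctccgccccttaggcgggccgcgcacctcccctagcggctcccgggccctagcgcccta
PDK4: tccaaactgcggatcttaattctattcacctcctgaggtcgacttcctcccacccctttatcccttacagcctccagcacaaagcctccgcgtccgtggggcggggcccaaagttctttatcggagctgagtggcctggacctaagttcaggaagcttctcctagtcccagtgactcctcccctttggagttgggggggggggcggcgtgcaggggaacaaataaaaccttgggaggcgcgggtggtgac
KLF15: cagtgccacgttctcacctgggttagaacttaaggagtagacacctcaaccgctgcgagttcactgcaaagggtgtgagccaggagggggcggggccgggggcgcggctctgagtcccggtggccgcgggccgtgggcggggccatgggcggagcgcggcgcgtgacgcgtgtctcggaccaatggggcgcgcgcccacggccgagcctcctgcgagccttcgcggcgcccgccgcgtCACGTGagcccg
FOXO3 held a forkhead motif 179 bases before its start and E boxes 190 and 104 bases before it. TRIM63 held the receptor hexamer 230 bases before its start, KLF15 an E box 12 bases before it, and PDK4 none of these motifs. The forkhead motif stood in 15 of 369 windows of loci higher in the 4 fetuses (4.07%), in 3 of 277 windows of lower loci (1.08%), in 1.94% of 10138 windows of loci that passed the filter on low values, and in 2.27% of all 19531 protein-coding genes with a window. For the receptor hexamer the shares were 7.59% of higher, 10.8% of lower and 8.27% of filtered loci, against 10.3% of all genes. For the E box they were 8.40%, 7.94% and 7.64%, against 6.39% of all genes. A motif match is a description of the letters, not a binding site.

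The libraries of the 4 fetuses were not unusual in depth, which was estimated from the lowest FPKM values at 0.840 to 1.31 times the average, against 0.712 to 1.40 in the others. They held 15574 to 16184 loci above 0.5 FPKM, against 14921 to 16877. In 1340F5L 61.4% of non-zero values carried more than 6 significant digits, as in 1410F6L of another litter, and the calls below were also made without both. The skeletal muscle actin gene ACTA1 lay between 4135 and 10476 FPKM in the 4, within the range of 3241 to 13391 in the other fetuses, as fits the tissue label.

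The fetuses had been grouped as a catabolic stress state, a label whose marker genes were mostly high. FOXO1 reached 18.9, 10.1, 22.4 and 30.8 FPKM in 1340F5L, 1340F7L, 1340F8L and 1340F9L, against a lowest, median and highest value of 5.80, 6.85 and 8.59 in the other fetuses. FOXO3, the related FOXO factor, reached 34.3, 19.0, 37.5 and 45.9 FPKM, against 7.22, 9.90 and 12.6. Neither gene overlapped between the groups. INSRR, the insulin receptor-related receptor, read 4.85, 0.458, 5.41 and 12.6 FPKM against 0.00994, 0.0739 and 1.24. In INSRR the Iberian fetus 1340F7L lay below the highest other fetus, which belonged to sow 1412, so the groups overlapped. Proteasome subunits and the integrated stress response did not follow, as described below, so the fetuses are named here by their TRIM63 level.

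**Figure D1:**
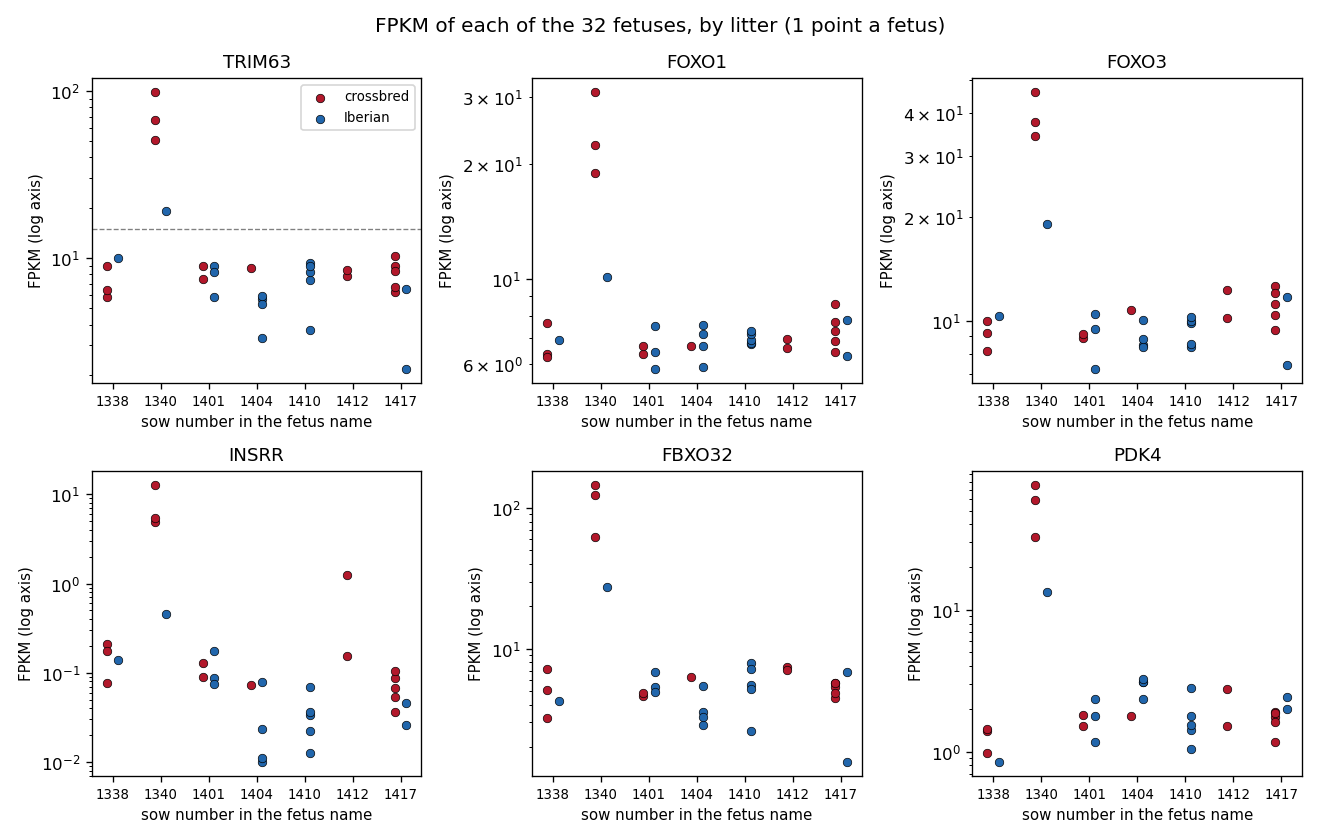
FPKM of 6 genes (vertical log axis) in each of the 32 fetuses, by the sow number in the fetus name, with 1 point per fetus in red for crossbred and blue for Iberian. The dashed line in the TRIM63 panel is the threshold of 15 FPKM. The 4 fetuses of sow 1340 lie above all others in each panel but that of INSRR, and the Iberian one is the lowest of the 4 in each.

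A locus was called higher or lower when all 4 fetuses lay beyond all 28 others and the mean difference was at least 1.3-fold. Of 17248 loci with a mean above 0.5 FPKM in either group, 475 were higher (2.75%) and 344 were lower (1.99%). Without 1340F7L 1591 were higher and 916 lower, and without 1340F5L and 1410F6L 609 and 452. Nothing is read from these counts, since the fetuses were chosen within the same comparison. Counts within the gene lists below stand beside the shares of 2.75% and 1.99% and are likewise a description. Differences are given as the mean log2(FPKM + 0.5) of the 4 minus that of the 28, a scale that understates the change of low genes, and their median over all loci was 0.04. In whole muscle, fewer cells of a type and less RNA per cell cannot be told apart.

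Ubiquitin ligases of atrophy were higher beside TRIM63, which itself read 50.9, 19.1, 67.5 and 98.3 FPKM against 2.16, 7.62 and 10.3. FBXO32 read 62.5, 27.6, 123 and 145 FPKM against 1.56, 5.22 and 7.93 in the others. Its difference was 3.79, larger than the 2.78 of TRIM63, and even the lowest of the 4 stood well above every other fetus. FBXO30 (MUSA1), a FOXO target among the ligases, read 28.9, 20.7, 33.2 and 40.9 FPKM against 7.80, 14.3 and 16.4. ZFAND5, a proteasome activator in atrophying muscle, read 157, 77.3, 180 and 215 FPKM against 38.2, 48.0 and 59.9. Both were free of overlap.

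Of the 27 measured genes in the list of FOXO factors and atrophy ligases, 8 were called higher and 0 lower, beside 2.75% and 1.99% of all loci. The median difference was 0.44 in the list and 0.04 over all loci. Both the count and the median include TRIM63 itself, whose call was fixed by the choice of the fetuses. The other called members were RNF19B with a difference of 1.56, and ASB2, which shares its locus with an unnamed gene, with 1.72. The remaining 19 overlapped the other fetuses. TRIM55 (MuRF2) and TRIM54 (MuRF3), the closest relatives of TRIM63 in the sarcomere, differed by 0.05 and 0.56 with overlap. FOXO4 differed by 0.73, and FOXO6 by 0.29. FBXO40, KLHL40, USP14 and the locus of UBE4A lay slightly below 0 with overlap.

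Receptors of insulin and of the insulin-like growth factors were high as well. INSR read 12.9, 8.39, 13.7 and 15.0 FPKM against 3.39, 4.29 and 5.59. IRS2, the adaptor through which the insulin receptor signals, read 17.0, 7.77, 20.0 and 26.9 FPKM against 0.886, 1.34 and 3.45. Neither overlapped, and the difference of IRS2 was 3.06. IGF1R differed by 1.22 and IGF2R by 1.13, also without overlap. PIK3R3, a regulatory subunit of phosphoinositide kinase, lay on the opposite side with a difference of -1.28 and overlapped. In all, 4 of 22 measured genes of this list were higher and 0 lower, beside 2.75% and 1.99% of all loci. The median of the list was 0.44.

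Some genes that hold back growth and translation were high too. DDIT4 (REDD1), an inhibitor of mTORC1, read 211, 32.9, 108 and 227 FPKM against 10.2, 14.5 and 21.1. GADD45B, a stress-induced growth arrest gene, read 104, 13.5, 61.4 and 83.5 FPKM against 2.93, 4.52 and 6.92. The crossbred fetuses stood far above the Iberian one in both. CCNG2, a cyclin that opposes cycling and a FOXO target, differed by 1.90, DDIT4L (REDD2) by 1.63, CDKN1B by 1.33 and SESN1 by 0.90. GADD45A differed by 2.36 but overlapped, since 1340F7L read 3.30 FPKM and the highest other fetus 3.82. MSTN, which encodes myostatin, differed by -0.78 with overlap. Of 24 measured genes, 8 were higher and 0 lower, beside 2.75% and 1.99% of all loci, with a median of 1.09.

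In the list of the glucocorticoid receptor and its targets, 10 of 30 measured genes were higher and 0 lower, with a median of 1.23. Over all loci 2.75% were higher and 1.99% lower. ARRDC2, an arrestin-domain protein, read 103, 11.8, 61.1 and 92.6 FPKM against 1.55, 2.32 and 5.03. ZBTB16 (PLZF), a transcription factor that glucocorticoids induce, read 22.9, 5.06, 17.5 and 33.3 FPKM against 0.643, 1.13 and 2.48. KLF15 read 20.5, 6.09, 24.0 and 36.6 FPKM against 1.40, 2.06 and 3.40. All 3 were free of overlap, at differences of 4.13, 3.31 and 2.85. KLF9 (2.19), NFKBIA (1.93), GLUL and the metallothionein locus that holds MT1A (2.59) were higher too. CEBPD differed by 3.52, but its deposited locus has the same coordinates as that of SPIDR (2.83), and reads of the pair may not have been separable. The receptor itself, NR3C1, differed by 0.57, FKBP5 by 0.88 and TSC22D3 (GILZ) by 1.24, all with overlap. KLF15, DDIT4 and FOXO1 also belong to lists described above.

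Genes of the hypoxia response were higher in 10 of 22 measured cases and lower in 0, beside 2.75% and 1.99% of all loci. Their median was 1.37. BHLHE40, a repressor induced by low oxygen that also acts in the clock, read 111, 39.2, 80.7 and 118 FPKM against 5.99, 13.1 and 21.4. MXI1, an antagonist of MYC, read 33.9, 29.9, 48.1 and 56.5 FPKM against 5.37, 7.83 and 12.6. NDRG1 read 55.1, 25.6, 50.2 and 75.6 FPKM against 6.10, 11.9 and 21.4. In these 3 genes no value of the groups overlapped. EGLN3, the prolyl hydroxylase that marks HIF proteins for degradation, differed by 1.80 and P4HA1 by 1.87 without overlap. ADM (adrenomedullin) differed by 2.41 and VEGFA by 1.63, both with overlap through 1340F7L.

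Some fuel genes were high, while most members of the fat oxidation and glycolysis lists overlapped. PDK4, the kinase that shuts off pyruvate dehydrogenase, read 32.7, 13.4, 59.6 and 75.6 FPKM against 0.841, 1.77 and 3.23. PPARGC1A, the coactivator of mitochondrial genes, read 23.6, 5.94, 36.4 and 103 FPKM against 1.17, 2.22 and 4.10. PNPLA2, the lipase that opens triglyceride breakdown, read 136, 36.1, 81.1 and 95.0 FPKM against 9.25, 15.6 and 29.0. These 3 were the members of the fat oxidation list that were higher, out of 31 measured, and DECR1 was lower at -0.48. In the glycolysis list 1 of 23 was higher. It was PFKFB3, the kinase that makes the activator of phosphofructokinase, with 51.6, 9.94, 37.1 and 45.0 FPKM against 2.24, 3.03 and 4.80. The glucose transporter SLC2A4 differed by 1.88 and hexokinase HK2 by 1.34, with overlap in both. The medians of the lists were 0.48 and 0.41.

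Of 34 measured autophagy genes, 6 were higher and 0 lower, beside 2.75% and 1.99% of all loci, with a median of 0.53. BNIP3, a receptor for the removal of mitochondria, read 497, 161, 414 and 688 FPKM against 57.1, 89.8 and 141. SQSTM1 (p62), the cargo receptor, read 268, 93.5, 217 and 306 FPKM against 38.9, 62.4 and 81.4. GABARAPL1, a FOXO target of the autophagosome membrane, read 107, 42.3, 71.8 and 123 FPKM against 16.2, 23.3 and 34.5. The 4 fetuses lay above all others in the 3 genes. ULK1, the kinase that starts autophagy, differed by 1.13 without overlap, and PINK1 by 1.04 with overlap.

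The proteasome, which degrades what the ligases mark, was not high. Of 30 measured subunits, 0 were higher and 2 were lower, and 23 had a negative difference, with a median of -0.24. PSMA1 read 23.9, 39.3, 31.2 and 29.9 FPKM against 40.6, 48.7 and 62.3, and all 4 fetuses lay below the others by a narrow margin. The other lower subunit, PSMA5, shares its locus with SORT1 and an unnamed gene. The ubiquitin gene UBB overlapped, with a difference of -0.03. Calpains, the calcium-dependent proteases, overlapped in all 6 members with a median of 0.11.

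The integrated stress response split in both directions, with 1 of 23 measured genes higher, 1 lower and a median of -0.11. SLC7A5, the leucine transporter, read 22.1, 2.96, 24.2 and 62.5 FPKM against 2.56, 4.13 and 7.88. DDIT3 (CHOP) differed by 1.16 and CEBPB by 1.65. All 3 were high in the crossbred fetuses and overlapped through 1340F7L. PHGDH, the first enzyme of serine synthesis, which shares its locus with an unnamed gene, was lower at 4.80, 5.99, 4.47 and 3.33 FPKM against 6.76, 15.6 and 44.8. ASNS, the asparagine synthetase induced by amino acid shortage, differed by -1.08 and overlapped.

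Immediate early genes were also split, with 5 of 27 higher and 3 lower, beside 2.75% and 1.99% of all loci. Their median was 0.83. MAFF, a small MAF factor, read 68.3, 11.4, 44.8 and 68.9 FPKM against 3.13, 4.11 and 9.73. FOS read 65.6, 21.4, 24.9 and 43.1 FPKM against 4.83, 8.47 and 20.3. Both were above all other fetuses, FOS by a small margin in 1340F7L. EGR1 (-0.76), IER2 (-0.81) and MYC (-0.56) were lower without overlap. NR4A1 differed by 2.14 and NR4A3 by 2.63, with overlap.

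In the circadian list 2 of 23 genes were higher and 0 lower, beside 2.75% and 1.99% of all loci, with a median of 0.61. They were BHLHE40 and its relative BHLHE41, which differed by 2.51. NOCT, a rhythmic phosphatase, read 29.3, 3.39, 21.1 and 58.8 FPKM against 2.03, 3.00 and 4.39, so that only 1340F7L fell among the other fetuses. PER1 differed by 1.94, likewise with overlap.

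Genes of proliferation differed in the opposite direction. All 24 measured genes of the list had a negative difference, with a median of -0.84. Of them 11 were lower without overlap and 0 higher, beside 1.99% and 2.75% of all loci. CCND1 (cyclin D1), which drives cells through the G1 phase, read 1.86, 3.44, 1.57 and 1.58 FPKM against 4.73, 6.82 and 8.70. E2F1, the factor that opens the S phase, read 4.51, 5.32, 3.56 and 1.60 FPKM against 6.73, 9.52 and 12.0. MCM6, part of the replication helicase, read 6.34, 19.7, 11.2 and 5.46 FPKM against 21.0, 27.5 and 34.7. The 4 fetuses lay under all others in each. RRM2 differed by -1.21 without overlap, and PCNA by -1.71 with 1340F7L reaching 24.4 FPKM against a lowest other value of 24.0. TK1 (-1.60), PCLAF (-1.59), CDCA7 (-1.62) and TCF19 (-1.75), further genes of DNA replication and cycling, were among the 12 named loci with the largest decreases.

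Other loci with large decreases came from fat and vessel biology. THRSP (Spot 14), a regulator of fat synthesis, had the largest decrease of loci with a symbol. It read 0.143, 0.860, 0.283 and 0.107 FPKM against 2.07, 5.11 and 69.8, a difference of -3.18 without overlap. It is 1 of 12 adipocyte markers, of which the other 11 overlapped, with summed levels reported below. APLNR, the apelin receptor of endothelial cells, read 9.04, 47.0, 17.2 and 10.1 FPKM against 51.2, 77.9 and 116. BCL6B (-1.77) and VASH1 (-1.76), which are endothelial genes, were lower, whereas FLT1 was higher at 13.9, 9.08, 20.4 and 23.2 FPKM against 5.44, 6.38 and 8.47. In a list of 17 vessel growth genes, also drawn up after values had been seen, 2 were higher and 4 lower, with a median of -0.28. The general endothelial markers PECAM1 (0.21) and CDH5 (-0.07) overlapped. RBM3, an RNA-binding protein known for its rise in the cold, read 56.8, 104, 63.5 and 51.1 FPKM against 160, 229 and 369. SRCIN1 (-1.76) and MPHOSPH6 (-1.62) completed the 12.

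SQLE, an enzyme of cholesterol synthesis, was also among them, at 2.37, 4.33, 2.48 and 1.93 FPKM against 5.76, 9.77 and 16.6. A list of 24 genes of sterol synthesis and uptake was drawn up after its value had been seen. In it 8 were lower and 0 higher, with a median of -0.60. LSS, which closes the sterol rings, read 3.24, 3.89, 2.92 and 2.39 FPKM against 4.56, 8.26 and 9.94. SC5D, an enzyme of a late step, read 1.76, 2.96, 2.81 and 3.25 FPKM against 3.39, 6.02 and 8.34. In both genes the 4 fetuses lay below all others, as they did for SREBF2 (-0.99), the factor that drives the list.

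Histone loci were looked at in the same way, after values had been seen. Of 12 measured loci with a replication-type histone name, 5 were higher and 0 lower, and all 12 had a positive difference. HIST1H4D read 121, 61.5, 110 and 135 FPKM against 11.9, 16.2 and 25.0, and HIST1H1D 57.3, 29.6, 56.0 and 62.8 against 5.45, 8.42 and 13.0. Both were far from the other fetuses, while the cycling genes above were lower. Members of this family are near-identical, and reads may have been split between copies. The libraries were made with an mRNA kit, and how evenly it captured histone transcripts was not tested.

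**Figure D2:**
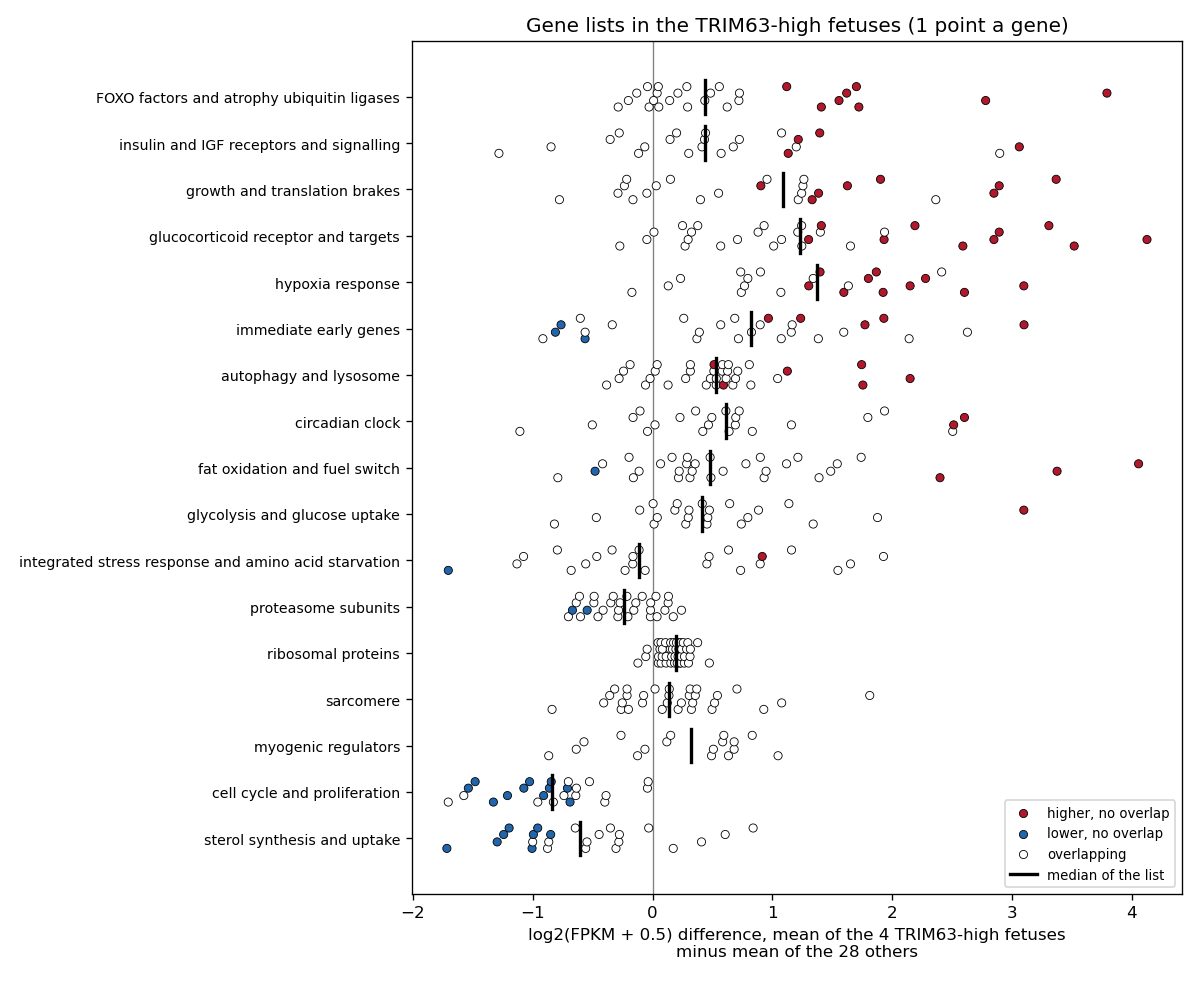
Log2 differences between the 4 TRIM63-high and the 28 other fetuses (horizontal axis) for the measured genes of 17 lists, with 1 point per gene, red and blue where no fetus overlapped, and a bar at the median of each list. Growth brakes, glucocorticoid targets and hypoxia genes had medians of 1.09, 1.23 and 1.37, while cell cycle genes had a median of -0.84. All lists were chosen with earlier results of these data known, and the sterol list after its own values had been seen.

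Sarcomere genes and myogenic regulators overlapped the other fetuses. Of 31 measured sarcomere genes 0 were called, with a median of 0.14, and of 16 myogenic regulators 0, with a median of 0.32. The median over all loci was 0.04. Over all loci 2.75% were called higher and 1.99% lower, so 0 calls in lists this small are not read as a result. MYH3, the embryonic myosin, read 1326, 650, 761 and 680 FPKM against 129.9, 532 and 960. The titin-cap gene TCAP, which shares its locus with STARD3, differed by 1.81 with overlap through 1340F7L. In the list of neuromuscular junction and denervation genes 1 of 16 was higher, namely HDAC4, a repressor induced by denervation, at 1.12. None of 45 ribosomal protein genes, 11 AMPK genes or 21 chaperones was called, and their medians were 0.20, 0.09 and -0.11. For the sarcomere and ribosomal lists the number of positive differences was 20 of 31 and 42 of 45 with all fetuses, and 14 and 26 without both 1340F5L and 1410F6L. Matrix genes (29) had a median of 0.42 with 1 higher, TIMP3, and polyamine enzymes (11) a median of -0.08 with 1 lower, AMD1.

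The 20 loci with the largest increases held several without a place in the lists. CCL2, the monocyte-attracting chemokine, read 205, 50.2, 339 and 258 FPKM against 11.0, 19.9 and 48.8. SLC43A2, a transporter of large neutral amino acids, read 84.2, 15.2, 63.0 and 89.9 FPKM against 3.16, 6.74 and 14.1. The 4 fetuses were above all others in both, 1340F7L only just. TMEM140 differed by 2.78. In a list of arrestin-domain and Kruppel-like factors drawn up after these values had been seen, 7 of 15 were higher and 0 lower, among them ARRDC3 (1.94) and KLF11 (2.11). ADAMTS9, a matrix protease, differed by 2.77 at 1 locus and by -0.63, with overlap, at a second locus of the same coordinates.

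Short RNAs led the ranking. U6atac, a spliceosomal RNA, read 76.8, 80.8, 70.5 and 367 FPKM at its locus on chromosome 4, against a median of 0 and a highest value of 39.2. At 3 other U6atac loci that passed the filter the groups overlapped. The locus of ssc-mir-101-2 read 9.11, 6.96, 14.8 and 1132 FPKM against 0.432, 1.32 and 2.45, so that 1340F9L alone set its size. FPKM divides by transcript length and is unstable for RNAs this short.

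Markers of other cell types were measured beside these results. Of 12 macrophage and immune markers 2 were higher, CD163 and PTPRC, and 10 had a positive difference, with a median of 0.95. CD163, the haemoglobin scavenger receptor, read 18.3, 16.5, 21.5 and 20.0 FPKM against 2.65, 4.06 and 10.1. Their summed level was 263 to 355 FPKM in the 4 and 165 to 594 FPKM in the others. The mean log2 level of the 12, relative to the average of the other fetuses, was 0.59 to 1.04 in the 4 and -0.70 to 1.34 in the others. Erythroid markers were called in 0 of 6 cases, with a median difference of 1.39 that was 0.80 without 1340F5L and 1410F6L, and with a mean of 0.60 to 2.91 in the 4 and -0.87 to 2.01 in the others. HBB, a haemoglobin chain, read 3191 FPKM in 1340F5L and 418 to 694 in the other 3, against a median of 286 and a highest value of 2819.

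Adipocyte markers summed to 50.3 to 158 FPKM in the 4 and 36.3 to 723 FPKM in the others, and had a mean of -1.12 to 0.30 in the 4 and -1.31 to 2.67 in the others. Skeletal muscle markers were called in 0 of 9 cases and had a mean of -0.24 to 0.71 in the 4 and -1.36 to 0.70 in the others. Among the rest, 1 of 9 Schwann cell markers was lower (NGFR, -1.42) and 1 of 9 endothelial markers was higher (FLT1). Of fibroblast, cartilage and liver markers 0 of 9, 0 of 11 and 0 of 9 were called. Over all loci 2.75% were higher and 1.99% lower. COL1A1 and COL3A1 were listed at 0 in at least 1 other fetus. SERPINA1, a defining liver gene, was at 0 in all 4, and in the others it had a median of 0 and a highest value of 0.051 FPKM. The part of macrophages and red cells in the differences above was not tested.

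Among themselves the 4 fetuses were ordered. Across the 475 higher loci 1340F7L was the lowest of the 4 in 76.4%, and across the 344 lower loci it was the highest in 74.1%. The median difference over the higher loci was 0.63 in 1340F7L, 1.07 in 1340F5L, 1.17 in 1340F8L and 1.27 in 1340F9L. Over the lower loci it was -0.58, -0.87, -0.85 and -1.05 in the same order. The Iberian fetus was thus closest to the other litters in both directions, and 1340F9L, with the highest TRIM63, was the farthest.

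Set against its own genotype, the litter difference mostly ran the same way at loci called in the crossbred fetuses. The 3 crossbred fetuses lay above all 13 other crossbred fetuses, by at least 1.3-fold, at 2047 of the 17248 loci, and below them at 1382. 1340F7L shares no fetus with that comparison when set against the 15 other Iberian fetuses. It was the highest of the 16 Iberian fetuses at 528 of the 2047 loci (25.8%), compared with 7.08% of all loci. It was the lowest of them at 360 of the 1382 loci (26.0%), compared with 4.82% of all loci. The direction was the same in 83.2% and 83.8%, and no such share over all loci was computed. Fetuses of both genotypes had been selected on TRIM63, so these shares are a description.

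The size was smaller in the Iberian fetus. At the 2047 loci the median difference was 1.00 in the crossbred fetuses and 0.28 in 1340F7L, and at the 1382 loci -0.83 and -0.27. The loci had been picked on the crossbred values, which favours a larger crossbred difference. FBXO32 differed by 4.15 in the crossbred fetuses and by 2.48 in 1340F7L, PDK4 by 4.66 and 2.50, and FOXO1 by 1.69 and 0.53. DDIT4L (1.69 and 1.44) and THRSP (-2.67 and -3.09) lay nearer to each other. With 1 Iberian fetus in the litter, the difference between genotypes could not be tested, and genotype cannot be told apart from the individual.

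**Figure D3:**
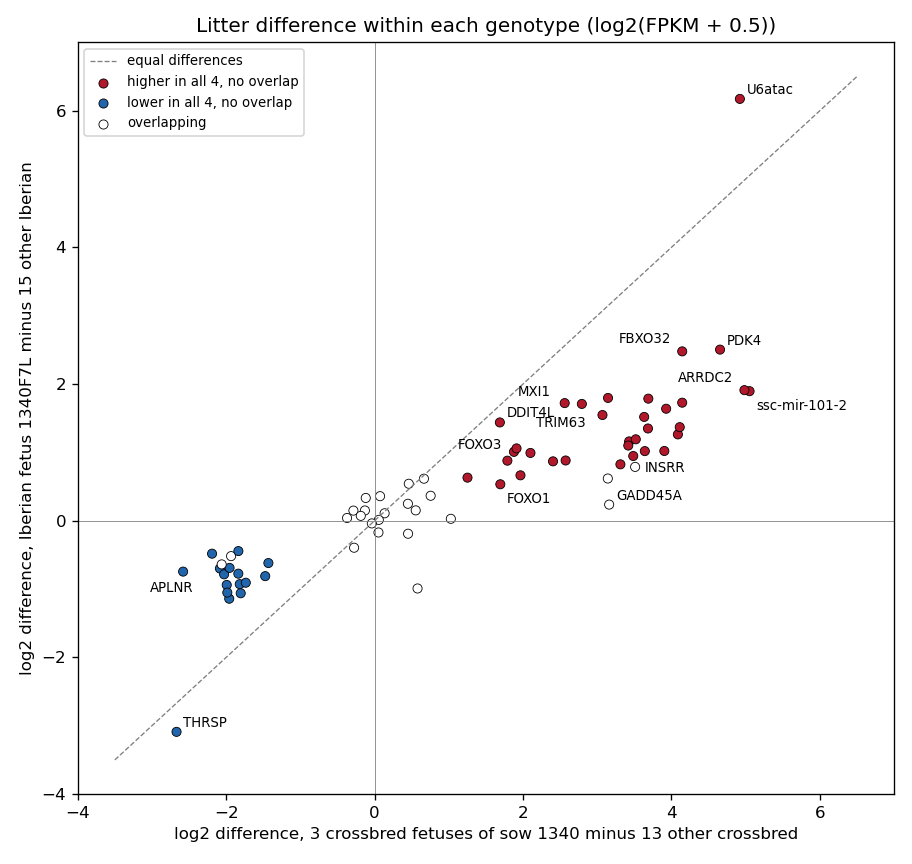
Log2 difference of the 3 crossbred fetuses of sow 1340 from 13 other crossbred fetuses (horizontal axis) against that of the Iberian fetus 1340F7L from 15 other Iberian fetuses (vertical axis), with 1 point per named gene, from the largest differences and the atrophy, growth brake, glucocorticoid, hypoxia and cell cycle lists. Each filled point lies on the same side of 0 on both axes, which the rule for calling a locus fixes in advance. Each filled point but those of U6atac and THRSP is nearer to 0 in the Iberian fetus, as FBXO32 is at 4.15 and 2.48.

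Whether these genes also go with TRIM63 at ordinary levels was tested in the 28 fetuses that the threshold had left out. Across their range of 2.16 to 10.3 FPKM, each locus was fitted with limma on TRIM63, with genotype and sex as covariates and Benjamini-Hochberg adjustment over 16137 loci. A slope of 1 means that the locus changed by the same fold as TRIM63, each with 0.5 FPKM added. At an adjusted p of at most 0.05, 2078 loci rose with TRIM63 (12.9%) and 1364 fell (8.45%). With the sow as a block 1810 rose and 1083 fell. After rescaling of the libraries by the median of ratios 1833 rose and 1789 fell. Without 1417F3L, which had the lowest TRIM63, 1569 rose and 880 fell. Without the 3 fetuses 1417F3L, 1410F5L and 1404F2L, left out after the data had been seen, 969 rose and 379 fell.

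Of the 10 loci with a symbol and the smallest p, all rose. PAX7, the factor of satellite cells, rose with a slope of 1.17 ± 0.10 (SE, limma adjusted p = 6.8e-09, n = 28). UNC45B, the myosin chaperone, rose with 1.00 ± 0.08 and the muscle cadherin CDH15 with 1.18 ± 0.11. CAPN3, the muscle calpain, rose with 0.86 ± 0.08, and PRKAG3, the muscle subunit of AMPK, with 0.88 ± 0.08. The other 5 named by this rule were CARNS1, AKAP1, SRL, FZD9 and DDR1, with slopes of 0.79 to 1.13. In the 4 chosen fetuses all 10 overlapped the others.

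Lists of muscle genes rose with it. In the sarcomere list 25 of 31 genes rose and 0 fell, among myogenic regulators 14 of 16 rose, and among skeletal muscle markers 8 of 9. Adipocyte markers fell in 11 of 12 cases and macrophage markers in 9 of 12, with 0 rising in either. The 3 fetuses with the lowest TRIM63, at 2.16, 3.31 and 3.71 FPKM, had the lowest muscle marker means, -1.36, -0.86 and -0.91, beside adipocyte means of 2.67, 2.13 and 1.89. With the mean of the skeletal muscle markers as a further covariate, added after the data had been seen, 2383 of the 16137 loci rose and 3589 fell. With it 2 genes of the sarcomere list rose and 5 fell, 9 myogenic regulators rose and 0 fell, and adipocyte and macrophage markers fell in 12 and 9 cases. Some sarcomere genes are themselves among these muscle markers.

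Within the atrophy list 12 of 26 genes rose and 1, NEDD4, fell, beside 12.9% and 8.45% of all loci. With the muscle covariate 5 rose and 5 fell, where 2383 and 3589 of all 16137 loci did. FBXO32 rose with a slope of 0.81 ± 0.13 (limma adjusted p = 5.7e-05, n = 28), and its adjusted p ranged from 6.4e-06 to 0.16 over the alternatives, the highest being without the 3 fetuses. With the muscle covariate the slope of FBXO32 was 1.00 (limma adjusted p = 0.0028). FOXO4 rose with 0.78 ± 0.08 (limma adjusted p = 7.1e-08) and stayed at or under 0.0022 in all alternatives run. TRIM55 rose with 0.67 ± 0.12 (2.4e-04) and FBXO30 with 0.40 ± 0.07 (1.7e-04), but without the 3 fetuses their limma adjusted p was 0.76 and 0.21, the highest of all alternatives, against a lowest of 1.1e-05 and 2.8e-05. FOXO1 had a slope of -0.05 ± 0.06 (adjusted p = 0.66) and FOXO3 of 0.10 ± 0.08 (adjusted p = 0.47), and neither passed the test. FOXO4 and TRIM55, which rose here, overlapped in the litter, and FOXO1 and FOXO3, which were high in the litter, did not pass here. INSRR was too low to be tested.

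**Figure D4:**
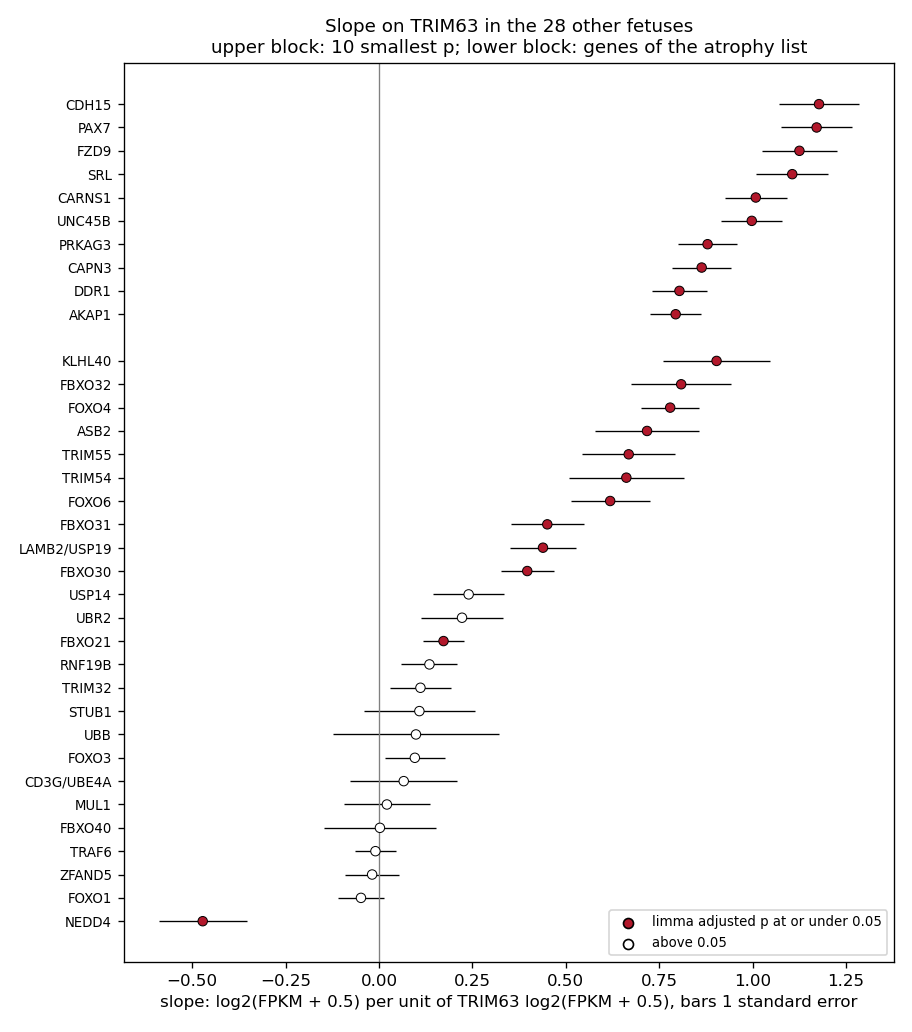
Slope of log2(FPKM + 0.5) on that of TRIM63 in the 28 other fetuses (horizontal axis), with bars of 1 standard error and filled points where the limma adjusted p was at or under 0.05. The upper block holds the 10 loci with a symbol and the smallest p, with slopes of 0.79 to 1.18, and the lower block 25 of the 26 tested genes of the atrophy list, of which FOXO1 and FOXO3 lie near 0.

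Several genes that were high in the litter of sow 1340 fell with TRIM63 in the other fetuses. IRS2 fell with a slope of -0.68 ± 0.12 (limma adjusted p = 1.9e-04, n = 28), ARRDC2 with -0.50 ± 0.11 (9.8e-04), CCL2 with -0.65 ± 0.16 (0.0042), KLF15 with -0.39 ± 0.10 (0.0059) and PDK4 with -0.50 ± 0.15 (0.015). None of these 5 passed without the 3 fetuses of low muscle and high adipocyte means, where their limma adjusted p ran from 0.074 to 0.49. Their slopes were then -0.61 for IRS2, -0.45 for ARRDC2, -0.41 for KLF15, -0.73 for PDK4 and -0.31 for CCL2. Over all alternatives the adjusted p ran from 2.4e-05 in IRS2 to 0.49 in CCL2. With the muscle marker covariate ARRDC2 and CCL2 passed, at 0.013 and 0.0030. DDIT4 (0.23), ZBTB16 (-0.31), GADD45B (-0.17) and MAFF (0.20) had slopes that did not pass, at limma adjusted p of 0.14 to 0.36, and did not pass in any alternative run, where the lowest was 0.060 for DDIT4. In the glucocorticoid list 3 of 30 genes rose and 10 fell, and in the hypoxia list 5 of 22 rose and 6 fell. Of 24 cell cycle genes 2 rose and 0 fell, and over all loci 12.9% rose and 8.45% fell. With the muscle covariate 2 rose and 10 fell in the glucocorticoid list, and 1 rose and 7 fell in the hypoxia list. Among cell cycle genes 2 then rose and 6 fell, and over all 16137 loci 2383 rose and 3589 fell.

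THRSP fell steeply with TRIM63 in the other fetuses, with a slope of -2.14 ± 0.27 (limma adjusted p = 2.0e-06, n = 28), and was at its lowest in the litter of sow 1340. Its adjusted p stayed at or under 0.018 in every alternative that was run. APLNR (-0.12), BCL6B (-0.03), RBM3 (0.05) and the other 8 loci with the largest decreases had slopes that did not pass the test, at limma adjusted p of 0.22 to 0.97. With the muscle covariate APLNR (-0.83), TK1 (-0.81) and TCF19 (-0.72) fell, at limma adjusted p of 0.0016, 0.0091 and 0.015, and without the 3 fetuses SQLE rose with 0.95 (0.021). Each of these 4 p was the lowest of the gene's alternatives, and the highest were 0.88, 0.99, 0.77 and 0.50. A missed threshold does not show that these loci were unrelated to TRIM63. In the sterol list, chosen after values had been seen, 3 of 24 genes rose with TRIM63 and 0 fell, beside 12.9% and 8.45% of all loci. With the muscle covariate 2 rose and 5 fell, where 2383 and 3589 of all 16137 loci did. Nothing about the list is read from these counts.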

How the data were processed

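RNA of 32 fetal muscles was sequenced as 1 library each. The authors trimmed reads with Trim Galore, aligned them to Sscrofa11.1 with TopHat2 2.1.0 and Bowtie2, and assembled and quantified loci with Cufflinks 2.2.1 and Cuffdiff, per the labels and the study's methods. The deposited unit was FPKM per locus and fetus, in a table of 30413 loci. FPKM are not counts, so no count model was used, and read depth is known only relatively, from the steps of low values.

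Values were taken as log2(FPKM + 0.5), and loci with a group mean above 0.5 were kept. The 4 TRIM63-high fetuses were described against the other 28 without a test. Slopes on TRIM63 in those 28 were fitted with limma 3.58.1 in R 4.3.3 (genotype and sex as covariates, Benjamini-Hochberg adjustment). On simulated data with 16137 loci, slopes of 1 were recovered in 80% of cases and slopes of 0.5 in 40%, with 4 false calls. The simulated spread was independent between loci and between fetuses, without litters or shared tissue composition. These false calls therefore do not measure those among the real loci. Alternatives were the pseudocount, the filter, rescaling, the fold minimum, the overlap allowed, 1 genotype, leaving out each of the 4 fetuses, and, for the slope, each of the 28, no covariates and the sow as a block. The muscle covariate and the fits without 2 or 3 fetuses were added after the data had been seen.

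Members and gene lists were chosen with earlier results of these data known. Named genes were the 20 largest increases and 12 largest decreases among called loci with a symbol, the atrophy list, the largest differences within each list, and the 10 smallest p of the slope. Of 636 list genes, 37 had no locus and 66 lay in loci that hold several genes. Of 8039 Ensembl numbers in locus names, 1000 were given symbols from a RefSeq table. Promoters came from RefSeq (Sscrofa11.1). Values of 4 named genes are not reported here.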

Additional observations from a re-analysis of the deposited data

Results flagged for a closer look

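Among 222 named loci, 12 had 1 of the 4 fetuses far from the other 3, by Dixon's criterion for 4 samples, which chance meets in about 1 of 20 groups. 1340F9L was far above the others in U6atac (367.1 FPKM, next 80.8) and ssc-mir-101-2 (1132 FPKM, next 14.8). 1340F5L was far above in 6 loci. They were FBXO31 (24.0 FPKM), TRIM54 (61.2), STUB1 (94.6), the locus of UBE4A (46.7), HSPB7 (19.4) and the locus of TNNT3 (6882). This fetus also had the highest muscle marker mean of the 4, a mean that includes TNNT3 itself. 1340F7L was far below in RNF19B (17.0 FPKM), PPARD (11.9) and VWF (8.54), and far above in DNAJA1 (23.9).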

How the results depend on the processing

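The counts of loci without overlap moved with the rule and with the fetuses included. With overlap allowed with at most 1 other fetus they were 723 higher and 538 lower, with a minimum of 2-fold 255 and 110, and among crossbred fetuses only, under a filter of their own, 2073 and 1394. Leaving out 1 of the 4 fetuses gave 496 to 1591 higher and 356 to 916 lower loci, the highest of each without 1340F7L. Leaving out 1 of the 28 gave 1569 to 2187 rising and 880 to 1595 falling slopes, the lowest of each without 1417F3L, and without 1417F3L, 1410F5L and 1404F2L 969 rose and 379 fell. With the muscle markers as a covariate 3589 loci fell and 2383 rose, and 13 of 26 slopes of the atrophy list changed sign. Of these, 4 had passed the test and became -0.013 for the locus of LAMB2 and USP19, -0.31 for TRIM54, -0.10 for FBXO31 and -0.082 for the locus of ASB2, and another 4 passed it only with the covariate, at -1.0 for UBB, -0.62 for STUB1, -0.52 for MUL1 and -0.67 for the locus of UBE4A. The cause was not tested. Other pseudocounts, filters and rescaling left the counts of higher and lower loci within 1.5-fold. Of the log2 differences of named loci 3467 stayed within the spread and 28 moved beyond it. Of their slopes 2370 kept their sign and their side of the threshold, 74 that passed in neither fit changed sign, 28 gained the call, 27 lost it, and the 8 named above changed sign while passing in at least 1 fit. No paired analysis was possible because the 4 and the 28 fetuses come from different sows and share no replicate number that marks a pair. Depth limits the loci near 0.5 FPKM, where relative depth from 0.712 to 1.40 was known but reads were not.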
